A study of Macaca mulatta with 12 samples.

Results

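Cytochrome c oxidase, complex IV of the mitochondrial respiratory chain, was followed through the genes of 10 of its nuclear-encoded subunits, COX4I1, COX5A, COX5B, COX6A1, COX6B1, COX6C, COX7A2, COX7B, COX7C and COX8A, in the lateral geniculate nucleus of rhesus macaques with monocular deprivation. The members were all non-control probe sets annotated to exactly 1 of these symbols. There were 17 of them among 22283 probe sets of a human expression array whose annotation names 11963 genes by a single symbol, and each of the 10 genes had at least 1. Measured values played no part in that choice, but the gene family was chosen with earlier results of these data known.

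RNA came from single geniculate layers of monkeys in which 1 eye had been deprived, with 1 array for each of the 6 layers in each hemisphere, 12 in all. The deprived group (6 samples) held ipsilateral layers 2, 3 and 5 together with contralateral layers 1, 4 and 6. The non-deprived group (6 samples) held the opposite member of each layer pair, so the non-deprived samples also came from deprived animals and there was no group from untreated ones. By anatomy, the magnocellular class comprised layers 1 and 2 (4 samples) and the parvocellular class layers 3 to 6 (8 samples). The sources used here do not give the method or length of deprivation, the ages, how many animals there were or which samples came from the same one. If several samples came from 1 animal, the p-values understate the uncertainty between animals, and the spread may be partly technical.

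Cytochrome c oxidase takes electrons from cytochrome c, passes them to oxygen and pumps protons across the inner mitochondrial membrane. Its catalytic core is encoded by mitochondrial DNA, and the nuclear-encoded subunits studied here surround that core and serve its assembly, stability and regulation. Because neurons pay for synaptic activity and ion pumping largely by oxidative metabolism, staining for cytochrome oxidase activity has long been used to map activity in the primate visual pathway, and layers driven by a silenced or closed eye stain more weakly. The factors NRF1 and GABP (also called NRF2) are known regulators of the nuclear-encoded subunit genes. The mitochondrially encoded subunits were not analysed here.

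The arrays had been scaled to equal trimmed means, yet their median intensity ranged from 411.5 to 666.5. The deprived ipsilateral layer 2 had the lowest mean correlation with the other arrays (0.889 against 0.920 to 0.947). The GAPDH control probes had a 3'/5' ratio of 9.38 there and of 11 in the deprived ipsilateral layer 5, against 2.21 to 5.65 elsewhere. RNA degradation can raise this ratio, but what raised it here was not tested. The ACTB control probes had ratios from 17 to 62.9 over the arrays and ordered them otherwise. Deprived ipsilateral layer 2 was the highest at 62.9, but layer 5 had 24.4, against 54.7, 43.9 and 31.9 in the non-deprived ipsilateral layers 1, 4 and 6. SLC17A6, the vesicular glutamate transporter of thalamic relay neurons, was bright on every array (24556 to 42638). SLC17A7, the transporter that prevails in the cerebral cortex, ranged from 189.9 to 3684. Macaque RNA on human probes can bind unevenly, so each probe set is compared only with itself on other arrays, and levels are not ranked between genes. Unless stated otherwise, a level is a scaled intensity, a difference is on the log2 scale with its standard error, and an adjusted p comes from limma with Benjamini-Hochberg adjustment over all 11105 probe sets whose mean log2 intensity reached the median.

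Of the 17 probe sets, 15 passed that filter, at least 1 for each gene. The 2 left out were dim: COX4I1 213758_at lay between 31.5 and 169, and COX5B 213736_at between 75.9 and 822.7, highest in the deprived contralateral layers 4 (822.7) and 6 (675). They are described by these values only.

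The first question was whether the transcripts were lower in layers driven by the deprived eye. COX5B, COX5A and COX4I1 had the most negative differences, near -0.48, -0.30 and -0.26, and COX6C had one near 0. Of the 15 probe sets, 14 had a negative difference and 1 a positive one, with a median of -0.21. Over all probe sets tested, 46.3% were negative and the median was 0.03. Some of the 15 belong to the same gene and are not independent. With only the brightest probe set of each gene, 9 of 10 were negative (median -0.21). No member passed adjusted p under 0.05 (0.283 to 0.973 by limma). At that threshold 0.063% of all probe sets passed. At an unadjusted p under 0.05, 4 of 15 were lower, of COX4I1, COX5A and COX5B (2 probe sets), where 6.07% of all probe sets were. That count was 1 without the non-deprived layer 1, and 2 when any one of deprived layers 2 and 4 and non-deprived layers 2 and 5 was left out, with quantile normalization or with the GAPDH 3'/5' ratio as a covariate. In parvocellular layers alone it was 0. It stayed at 4 with the ACTB ratio as a covariate and was 5 without the non-deprived layer 4. With the GAPDH ratio, with the ACTB ratio and without the deprived ipsilateral layers 2 and 5, all 15 differences were negative. Their medians were -0.224, -0.249 and -0.265, where 48.7%, 46.8% and 49.1% of all probe sets were negative. A lower value under deprivation in at least 5 of 6 layers was found for 4 of 15, against 10.9% of all probe sets. After centring each array on its median, all 15 differences were negative, while the median over all probe sets itself moved from 0.03 to -0.11. With quantile normalization the median of the 15 was -0.13, against -0.01 over all probe sets. In that setting 13 of 15 were negative, and COX6A1 (0.05) and COX7A2 (0.02) were positive.

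COX4I1 and COX5A encode the subunits that join the mitochondrially encoded core early in assembly, and COX4I1 carries a site through which ATP inhibits the enzyme. The brighter COX4I1 probe set, 202698_x_at, read 38458 and 40441 in the deprived and non-deprived layer 1, 29294 and 44254 in layer 2, and 37190 and 39230 in layer 3. It read 35450.2 and 43140.4 in layer 4, 33230 and 47493 in layer 5, and 38360 and 38466 in layer 6. Every deprived sample lay below every non-deprived one, by a narrow margin between the deprived layer 1 and the non-deprived layer 6. It was the only 1 of the 15 whose groups did not overlap, where 0.351% of all probe sets were lower without overlap.

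The fitted difference of this probe set was -0.26 ± 0.11 (95% interval -0.49 to -0.03, adjusted p = 0.362 by limma). Its values were -0.30 within the ipsilateral and -0.22 within the contralateral hemisphere. The second COX4I1 probe set, 200086_s_at, ran from 7685 through a median of 9108 to 11198 in deprived samples and from 9290 through 10145 to 12203 in non-deprived ones. Its groups overlapped, its difference was -0.19 ± 0.14 (adjusted p = 0.633) and it was lower in 3 of 6 layers. Over the 12 arrays the 2 probe sets had a Pearson r of 0.26 with each other, a description that gives no test.

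COX5A read 15586, 17333 and 18237 in the deprived ipsilateral layers 2, 3 and 5, and 25650.4, 24064 and 21343 in the deprived contralateral layers 1, 4 and 6. Non-deprived samples read 28002, 20297 and 21734 in the ipsilateral layers 1, 4 and 6, and 30653, 23388 and 25241 in the contralateral layers 2, 3 and 5. The 3 deprived ipsilateral samples were the lowest of all 12, and the deprived contralateral samples lay among the non-deprived ones. The difference was -0.30 ± 0.13 (95% interval -0.56 to -0.03, adjusted p = 0.362 by limma, lower in 5 of 6 layers). Leaving out the deprived layer 2, whose array correlated least with the rest, gave -0.21.

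COX5B encodes the zinc-binding subunit on the matrix side of the complex and had the most negative differences of the family. Its brightest probe set, 202343_x_at, read 12061 and 16126 in the deprived and non-deprived layer 1, 8169 and 14479 in layer 2, and 10728 and 17246 in layer 3. It read 10203 and 8690 in layer 4, 9602 and 22152 in layer 5, and 11949.9 and 11693 in layer 6. The deprived samples were lower in 4 of 6 layers, and in the contralateral deprived layers 4 and 6 they were slightly higher.

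The difference of that probe set was -0.48 ± 0.17 (95% interval -0.84 to -0.12, adjusted p = 0.283 by limma), a fold of 0.718. The other probe sets had -0.48 ± 0.28 (211025_x_at) and -0.41 ± 0.17 (213735_s_at). All 3 were lower in the same direction in both hemispheres, and each was lower in 4 of 6 layers. Their values followed one another over the 12 arrays (Pearson r from 0.74 to 0.92), as probe sets of 1 transcript can. Leaving out single arrays moved the brightest one between -0.60 and -0.38.

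**Figure D1:**
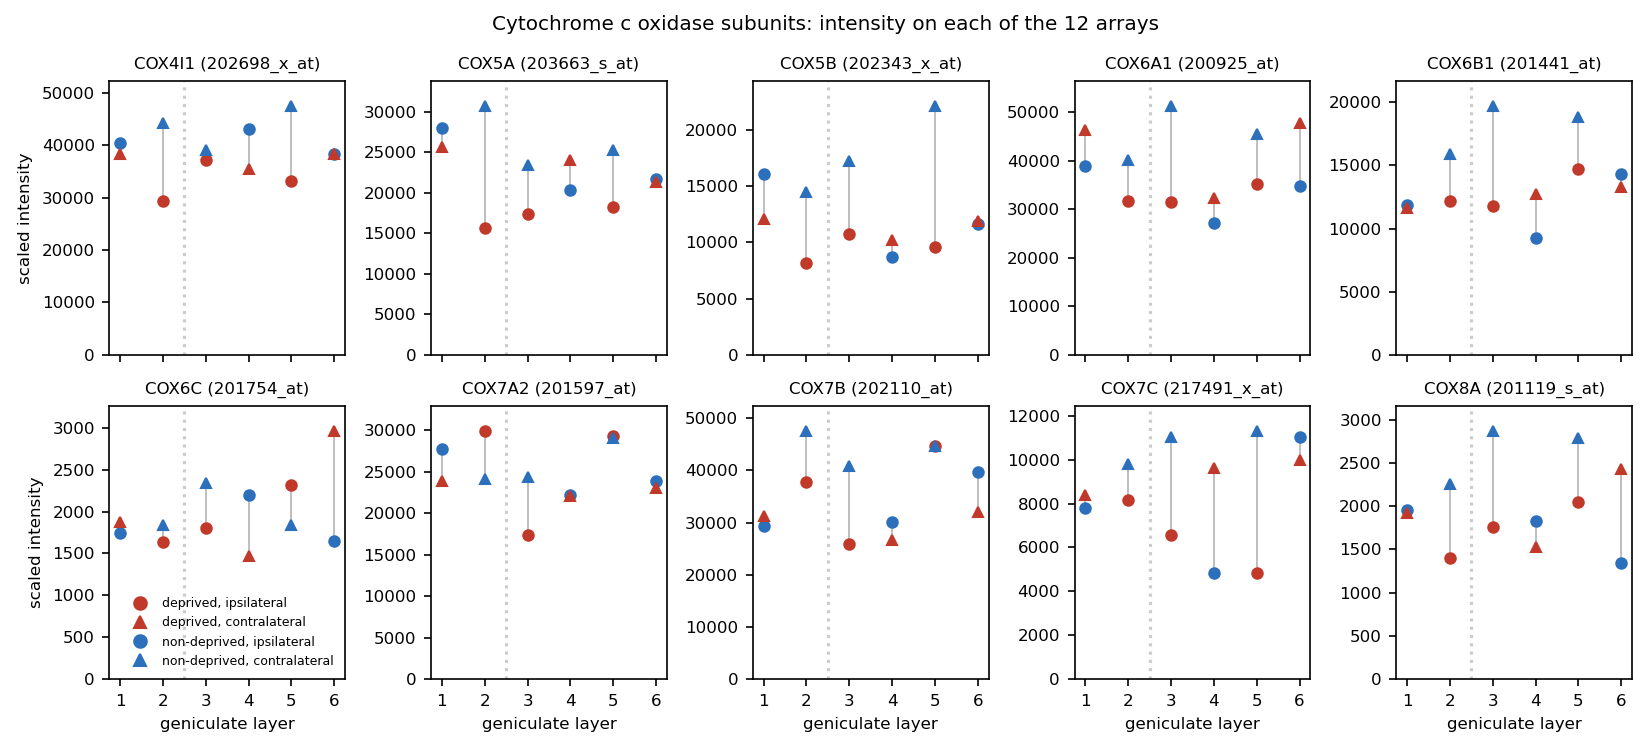
Scaled intensity (linear axis from 0) by geniculate layer for the brightest probe set of each gene, 1 point per array, red for deprived and blue for non-deprived samples, circles for ipsilateral and triangles for contralateral ones; grey lines join the samples of a layer and the dotted line parts magnocellular from parvocellular layers. In COX4I1 the deprived samples lie between 29294 and 38458 and the non-deprived ones between 38466 and 47493, while in the other 9 genes the groups overlap.

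COX6A1 and COX6B1 lie where 2 copies of the complex meet, and COX6B1 faces the intermembrane space. COX6A1 had a difference of -0.08 ± 0.13 (95% interval -0.36 to 0.21), and its deprived sample was lower in layers 2, 3 and 5 and higher in layers 1, 4 and 6. The contralateral sample was the higher one in 6 of 6 layers: 46315 against 38849 in layer 1, 40126 against 31686 in layer 2 and 51271 against 31533 in layer 3. It was 32410 against 27256 in layer 4, 45648 against 35124 in layer 5 and 47909 against 34741 in layer 6. For COX6A1 the higher sample of each layer was thus given by its hemisphere.

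COX6B1 ran from 11614 through a median of 12478 to 14687 in deprived and from 9237 through 15117 to 19694 in non-deprived samples. The non-deprived values were more spread out and held both the lowest and the highest array. Its difference was -0.19 ± 0.16 (adjusted p = 0.683, lower in 5 of 6 layers).

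The remaining genes encode small membrane-spanning subunits, of which COX7A2 is the broadly expressed form of a subunit that has another form in muscle. COX7B ran from 25837 through 31671 to 44750.1 in deprived and from 29407 through 40306 to 47566 in non-deprived samples (-0.23 ± 0.16). COX8A ran from 1397 through 1841 to 2436 and from 1343 through 2108 to 2873 (-0.21 ± 0.18, lower in 5 of 6 layers). Both groups overlapped over most of their range in each gene.

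COX7A2 had -0.07 ± 0.14, with deprived samples from 17366 to 29933 and non-deprived ones from 22224 to 29131. COX6C had 0.03 ± 0.18, with medians of 1839 in deprived and 1837 in non-deprived samples, and its highest array was the deprived layer 6 (2963). Their 95% intervals, from -0.37 to 0.23 and from -0.36 to 0.42, hold differences of either sign. The sign of COX6C was negative after median centring (-0.11) and with quantile normalization (-0.02).

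For COX7C the probe sets differed. The brightest, 217491_x_at, had -0.22 ± 0.19, 201134_x_at had -0.16 ± 0.19 and 213846_at had -0.02 ± 0.18. Their pairwise Pearson r over the 12 arrays was -0.22, -0.04 and 0.35, against 0.74 to 0.92 for the probe sets of COX5B. In layer 5 the deprived sample read 4816 and the non-deprived one 11311 on 217491_x_at, but 6649 and 5724 on 201134_x_at. No single pattern can therefore be given for COX7C. Probe sets whose names end in _x_at or _s_at may also bind related transcripts, and this family has many processed pseudogenes.

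The layers were also read one by one, each as 1 array against 1 array with no test of a difference between layers. In layer 3, 15 of 15 member probe sets were lower in the deprived sample (median -0.66), followed by 12 of 15 in layer 2 (-0.33) and 11 of 15 in layer 5 (-0.45). All of these have an ipsilateral deprived sample. In layers 1, 4 and 6, with a contralateral one, 8, 7 and 8 of 15 were lower, with medians of -0.03, 0.06 and 0.00. The share of all tested probe sets that were lower in the deprived sample was 45.7%, 43.4% and 39.7% in layers 2, 3 and 5, and 59.5%, 56.4% and 46.4% in layers 1, 4 and 6. Within 1 layer, deprivation and hemisphere cannot be told apart.

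For hemisphere (ipsilateral minus contralateral) the median difference of the 15 probe sets was -0.28, where the median of all probe sets was 0.07. Of the 15, 13 were negative (COX7C 201134_x_at at 0.00) and 2 positive (COX7A2 at 0.02 and COX7C 213846_at at 0.12), against 42.1% of all probe sets, and none passed adjusted p under 0.05, where 0.108% of all did. The smallest adjusted p by limma belonged to COX6A1 (-0.40 ± 0.13, adjusted p = 0.138), COX7C 217491_x_at (-0.54 ± 0.19, 0.149) and COX5A (-0.33 ± 0.13, 0.175). At an unadjusted p under 0.05, 6 of 15 were lower, where 7.13% of all probe sets were. That count was 0 with the GAPDH or the ACTB 3'/5' ratio as a covariate, and 3 when deprived layer 2, non-deprived layer 4 or non-deprived layer 5 was left out. Without the non-deprived layer 6, COX7C 217491_x_at passed (-0.67, adjusted p = 0.0341 by limma), as did 847 probe sets in place of 12. Median centring took the median of the 15 to -0.60 and that of all probe sets to -0.25. With quantile normalization these medians were -0.17 and -0.01, 11 of 15 were negative, and the count of 6 became 4. With the covariates the median of the 15 was -0.26 (GAPDH) and -0.14 (ACTB), and the lowest adjusted p was 0.873 and 0.485 by limma.

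Within a hemisphere deprived and non-deprived layers can be compared without that difference, each side holding 1 magnocellular and 2 parvocellular layers per group. They are then different layers, so deprivation cannot be told apart from layer there. The layers that were deprived on 1 side were the non-deprived ones on the other. Contralaterally 14 of 15 probe sets were lower in deprived layers, with a median of -0.22, where 51.6% of all probe sets were lower. Ipsilaterally 9 of 15 were lower, with a median of -0.05, where 44.9% were. COX5B 202343_x_at had -0.64 contralaterally and -0.32 ipsilaterally, COX7B -0.57 and 0.11, COX6B1 -0.53 and 0.14, and COX5A -0.15 and -0.44. The test of the difference between hemispheres is also the contrast between the layers of each eye, and the 2 readings cannot be told apart. In that test 0 of 15 passed (0% of all probe sets did). The smallest unadjusted p belonged to COX6B1 (0.67 ± 0.28, ipsilateral minus contralateral, adjusted p = 0.7 by limma) and COX7B (0.67 ± 0.29, adjusted p = 0.704). At an unadjusted p under 0.05 these 2 of 15 stood beside 6.57% of all probe sets.

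**Figure D2:**
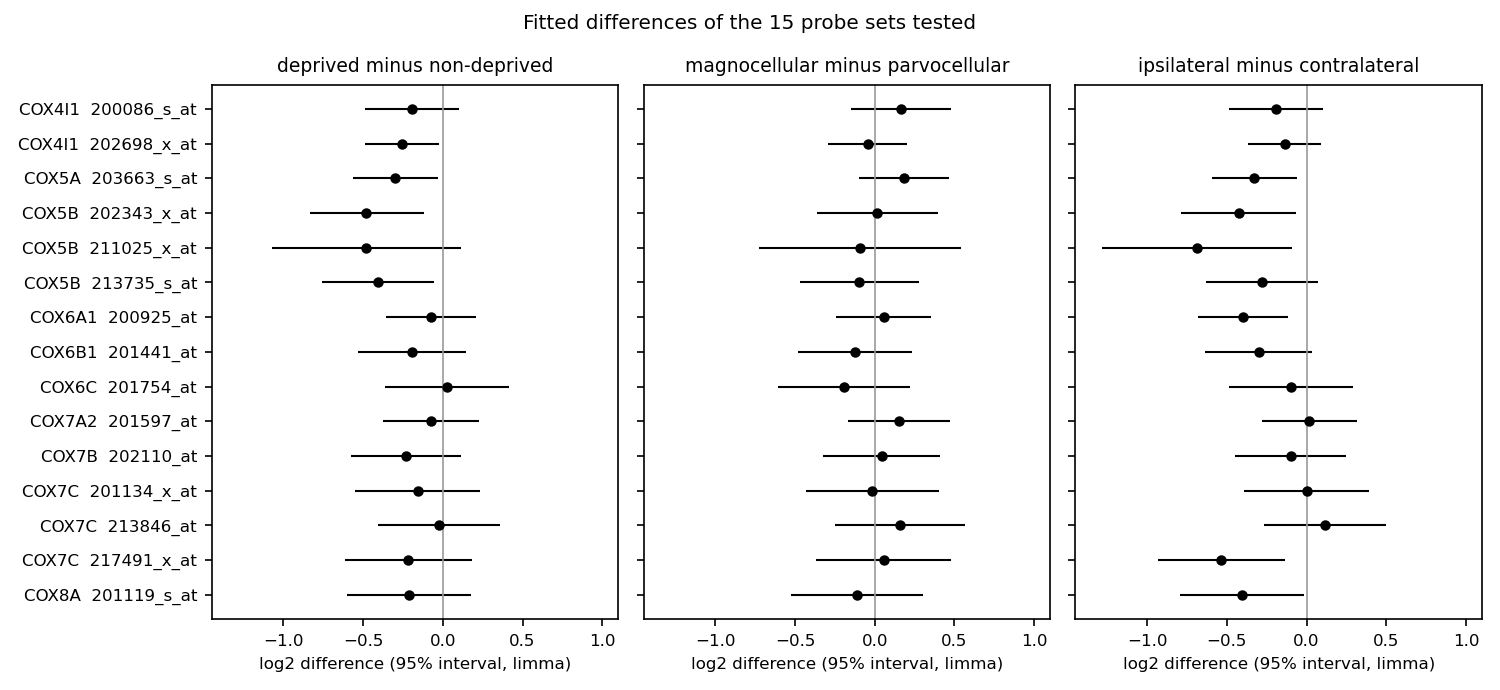
Fitted log2 differences (points) with 95% intervals (lines) of the 15 probe sets for deprivation, cell class and hemisphere, from limma. For deprivation 14 points lie below 0 and for hemisphere 13, whereas for cell class 7 lie below and 8 above.

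The second question was whether magnocellular and parvocellular layers differed. They gave no common direction: 7 of 15 differences were negative and 8 positive, with a median of 0.02 (0.10 after median centring, -0.01 with quantile normalization), where 58.5% of all probe sets were negative. No member passed (adjusted p from 0.558 to 0.987 by limma; 0 of 15 at an unadjusted p under 0.05, where 14.6% of all probe sets lay), while 0.72% of all probe sets passed. The groups overlapped for 15 of 15, where 0.946% of all probe sets were lower and 0.558% higher without overlap.

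COX5A had the largest positive difference, 0.19 ± 0.13 (95% interval -0.10 to 0.47). Its magnocellular samples read 28002 and 30653 when non-deprived and 25650.4 and 15586 when deprived, and the parvocellular ones ran from 17333 through a median of 21539 to 25241. Its 3 highest values and its single lowest value were all magnocellular. COX6C had the most negative difference, -0.19 ± 0.20 (-0.61 to 0.22), with magnocellular values of 1749, 1876, 1834 and 1635 within the parvocellular range of 1468 to 2963.

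The deprivation difference was also set against cell class. In parvocellular layers 13 of 15 were lower in deprived samples (median -0.22), where 43.3% of all probe sets were, and in magnocellular layers 11 of 15 (median -0.12), where 50.7% were. COX5B 202343_x_at had -0.62 in magnocellular and -0.41 in parvocellular layers, and COX5A -0.55 and -0.17. COX4I1 200086_s_at had 0.11 and -0.35. In the test of that difference 0 of 15 passed, nor did any of the 11105 probe sets (0%), and 0 of 15 had an unadjusted p under 0.05, where 8.73% of all did.

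Seen array by array, the mean of the members' log2 deviations from their own means was highest in the non-deprived contralateral layers 5 (0.42), 3 (0.28) and 2 (0.16). It was lowest in the deprived ipsilateral layer 3 (-0.29), the non-deprived ipsilateral layer 4 (-0.24) and the deprived contralateral layer 4 (-0.23). Both samples of layer 4 were thus low, and they differed by less than the residual SD of this mean (0.16). The subunits followed the mean of the other member genes unevenly over the 12 arrays: Pearson r was 0.85 for COX5B 213735_s_at, 0.82 for COX6A1, 0.78 for COX6B1 and 0.71 for COX8A, but 0.38 for COX7A2 and 0.21 for COX6C. These values share their arrays and scaling and are given as a description.

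The genes whose pattern over the 12 arrays was most like that mean, of 7275 other genes compared, were VDAC3, a channel of the outer mitochondrial membrane (Pearson r 0.92), NDUFS3 of complex I (0.92), UQCR11 of complex III (0.90), the neuronal ubiquitin hydrolase UCHL1 (0.88) and EMG1, a ribosome assembly factor (0.87). Of these 5, NDUFS3 had the most negative deprivation difference (-0.42, adjusted p = 0.269 by limma) and VDAC3 the least (-0.13).

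The rest of the pathway was read from lists of 75 further genes, of which 52 were on the array under 1 symbol and 44 passed the filter. None of the 44 passed adjusted p under 0.05 with deprivation or with cell class, where 0.063% and 0.72% of all probe sets did. Of 3 other structural subunits, COXFA4 (also called NDUFA4), a subunit first assigned to complex I, had -0.43 ± 0.16 with deprivation (adjusted p = 0.299) and COX7A2L, which helps join complexes into supercomplexes, had 0.06 ± 0.16. With cell class COX6A2, the muscle form of COX6A1, had -0.49 ± 0.22 and COXFA4 0.25 ± 0.17.

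Of 14 assembly genes, 11 were negative with deprivation (median -0.18), where 46.3% of all probe sets were. COX11, which delivers copper to the core, went from 798 ± 164.6 in non-deprived to 537.2 ± 146.4 in deprived samples (SD, n = 6 each; -0.59 ± 0.22, adjusted p = 0.306 by limma), and OXA1L, the inner membrane insertase, had -0.42 ± 0.18. With cell class 9 of 14 were negative, where 58.5% of all probe sets were, with HIGD1A at -0.62 ± 0.24 (adjusted p = 0.249 by limma). The probe set annotated to COX20 had -0.57 ± 0.29, but the transcript record it is annotated with may belong to another gene, so this value may not be that of COX20. Of the 2 genes of electron delivery, CYC1 of complex III had -0.43 ± 0.18 and CYCS, cytochrome c itself, -0.03 ± 0.17 with deprivation, and 0.13 ± 0.19 and 0.12 ± 0.18 with cell class.

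Of 10 regulators of nuclear respiratory genes, 7 were positive and 3 negative with deprivation (median 0.16, and 5 positive after median centring), where 46.3% of all probe sets were negative. CREB1 had 0.49 ± 0.25, NRF1 0.41 ± 0.25, and ESRRA, an orphan nuclear receptor, -0.38 ± 0.20. PPARGC1A, the coactivator PGC-1alpha, had -0.22 ± 0.20 with deprivation and 0.48 ± 0.21 with cell class (adjusted p = 0.294), and HCFC1 had -0.68 ± 0.26 with cell class.

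Of 15 general mitochondrial genes, 14 were negative with deprivation (median -0.27), where 46.3% of all probe sets were. With quantile normalization 14 were negative and after median centring 15, where 52.1% and 66.2% of all probe sets were. PHB2, a scaffold of the inner membrane, went from 14160 ± 1271 to 9084 ± 2366 (SD, n = 6 each; -0.69 ± 0.18, adjusted p = 0.154 by limma, lower in 6 of 6 layers), and SLC25A4, an ADP/ATP carrier, had -0.62 ± 0.17 (adjusted p = 0.164). CS, citrate synthase, a usual measure of mitochondrial content, had -0.25 ± 0.15. With cell class 12 of 15 were positive (median 0.14), where 58.5% of all probe sets were negative, led by HSPD1 (0.33 ± 0.13) and IMMT (0.41 ± 0.18).

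**Figure D3:**
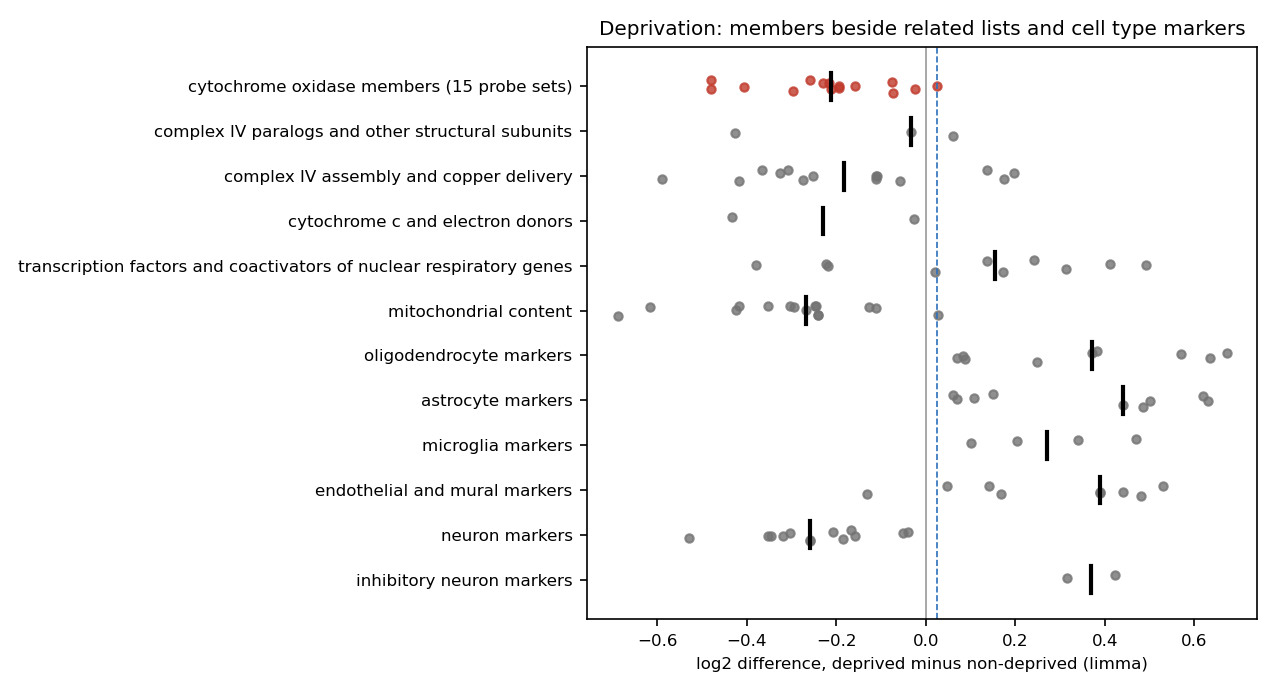
Log2 difference of deprived minus non-deprived samples for each cytochrome oxidase probe set (red) and for each gene of the related lists and cell type markers (grey, 1 probe set per gene), with the median of each list as a black bar and the median of all 11105 probe sets as a dashed line at 0.03. The member median is -0.21, the mitochondrial content median -0.27 and the neuron marker median -0.26, while the medians of the glial and vascular lists lie between 0.27 and 0.44.

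Markers of cell types were read beside the subunits, and none of them passed with deprivation. Of all probe sets, 0.063% passed and 46.3% were negative. In bulk tissue fewer cells of a type and less RNA per cell cannot be told apart. Of 13 neuron markers 13 were negative (median -0.26; 12 with quantile normalization), led by the neurofilament genes NEFM (-0.53 ± 0.11, adjusted p = 0.101 by limma) and NEFH (-0.35 ± 0.10). Their summed level was 562642 to 689202 in deprived and 698635 to 830338 in non-deprived samples, with no overlap. Such a sum gives most weight to the brightest probe sets, such as SYT1 (74263 to 100344 over the arrays). It was not computed with other scalings or set against sums of other genes of like brightness. SNAP25, a synaptic protein of most neurons, had -0.04. The sum was the lower one under deprivation in 6 of 6 layers.

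Oligodendrocyte markers were positive in 9 of 9 (median 0.37; 6 of 9 after median centring), led by CNP (0.67 ± 0.20, adjusted p = 0.190) and TF (0.57 ± 0.20), with summed levels of 72149 to 156629 in deprived and 68541 to 113486 in non-deprived samples. Astrocyte markers were positive in 9 of 9 (median 0.44; 8 with quantile normalization, 6 after median centring), led by GFAP (0.62 ± 0.19) and AGT (0.49 ± 0.17), with sums of 86114 to 131423 and 59957 to 99568. Microglia markers were positive in 4 of 4 (median 0.27; 3 after median centring; CX3CR1 0.47 ± 0.19, CTSS 0.34 ± 0.23), with sums of 6939 to 13919 and 5982 to 8108. Endothelial and mural markers were positive in 8 of 9 (median 0.39; 7 in both other scalings; ACTA2 0.53 ± 0.23, CAV1 0.44 ± 0.20), with sums of 12964 to 19625 and 10482 to 14286. Both inhibitory neuron markers, GAD2 (0.42 ± 0.20) and GAD1 (0.32 ± 0.18), were positive, with sums of 22321 to 63624 and 24986 to 43938. No marker was at 0 on any array. The part of cell type makeup in the differences of the subunits was not tested.

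With cell class, 4 markers passed: NEFM was higher in magnocellular layers (0.83 ± 0.12, adjusted p = 0.00295 by limma), and MAG (-1.26 ± 0.23), MBP (-0.64 ± 0.13) and AGT (-1.07 ± 0.18) were lower. NEFH had 0.46 ± 0.11, SLC1A3 0.97 ± 0.26, GAD1 0.61 ± 0.19 and GAD2 0.10 ± 0.21. CSF1R had -0.43 ± 0.25 and CX3CR1 -0.18 ± 0.20 among microglia markers, and ACTA2 0.78 ± 0.25 and PDGFRB -0.68 ± 0.41 among vascular ones. The 4 that passed were 1 of 13 neuron, 2 of 9 oligodendrocyte and 1 of 9 astrocyte markers, where 0.72% of all probe sets passed. Of the neuron markers 8 were positive and 5 negative, and of the oligodendrocyte markers 3 were positive and 6 negative. The astrocyte markers, SLC1A3 among them, had no common direction: 5 were positive and 4 negative (median 0.05). Of all probe sets 58.5% were negative.

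**Figure D4:**
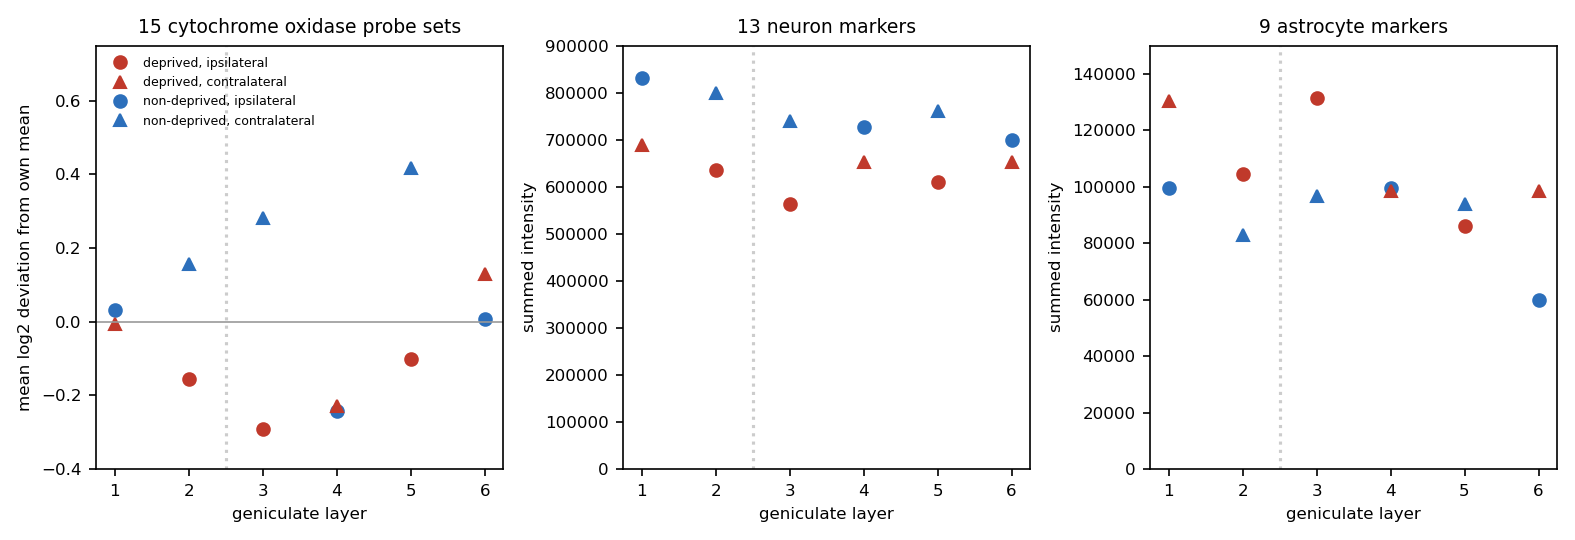
By layer and array, the mean log2 deviation of the 15 cytochrome oxidase probe sets from their own means (left) and the summed scaled intensity (axis from 0) of 13 neuron markers (middle) and 9 astrocyte markers (right); colours mark deprivation and shapes the hemisphere. The neuron sum is lower in the deprived sample of every layer (at most 689202 against at least 698635), whereas the subunit mean separates the samples most in layers 2, 3 and 5 and little in layers 1 and 4.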

How the data were processed

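The deposited table held 1 scaled intensity per probe set and array, on a linear scale. The software and detection calls are not given in the sources used here. Trimmed means (2% from each end) of the 12 arrays lay between 1500.45 and 1500.6, so the authors' deposited intensity values were used without rescaling. A floor of 110.8, the 20th percentile of all values, was set before taking log2. Probe sets with a mean at or above the median were tested, controls left out. The test was limma 3.58.1 (R 4.3.3; lmFit, eBayes with a trend, two-sided) with additive terms for deprivation, cell class (layers 1 and 2 against 3 to 6) and hemisphere (8 residual degrees of freedom), and each interaction added in turn (7). It was checked on simulated data with independent errors and planted changes larger than those of the members. That check does not show what could be detected at the size of the member differences. Alternatives covered scaling, the filter, the floor, RNA quality covariates, a layer block and single arrays left out. Where a list gives 1 value per gene, the probe set of the highest mean was used.

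Members, lists and naming rules were chosen with earlier results of these data known. The rule named all members, in each list the 2 genes of smallest p and any past the threshold, and the 5 genes most like the members' mean. NRF1, PPARGC1A, CS, SNAP25, SLC17A6 and SLC17A7 were named beyond it, after their values were seen. No sequences are shown.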

Additional observations from a re-analysis of the deposited data

Results flagged for a closer look

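Over 90 combinations of a member probe set and a group of arrays, 3 held an array far from the rest, and chance alone gives about 1 such array in 20 groups. COX6B1 was 15885 in the non-deprived contralateral layer 2, above the other magnocellular arrays (11614 to 12215). COX7A2 was 29131 in the non-deprived contralateral layer 5, above the other contralateral arrays (22127 to 24426). COX7C 201134_x_at was 3546.0 in the deprived contralateral layer 4, below the other contralateral arrays (4909 to 5724).

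COX6A1 was lower in the deprived sample in all 3 layers whose deprived sample was ipsilateral (mean -0.47) and higher in all 3 whose deprived sample was contralateral (0.32), a difference of -0.80. These layer differences also hold the difference between hemispheres. In the fit that separates the 2, the deprivation difference did not pass as differing between hemispheres (0.11 ± 0.27, adjusted p = 0.956 by limma).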

How the results depend on the processing

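No member probe set passed for deprivation, for cell class or for either interaction in the settings run, single arrays left out included; for hemisphere the count ranged from 0 to 1 without single arrays (1 without the non-deprived layer 6). At an unadjusted p under 0.05, the count of 4 for deprivation ranged from 1 to 5 and that of 6 for hemisphere from 3 to 6 without single arrays. The hemisphere count was 12 with median centring, 4 with quantile normalization and 0 with either 3'/5' ratio as a covariate. With median centring 74.7% of all probe sets were negative, against 42.1% in the main fit and 51.6% with quantile normalization. The share of all probe sets at that unadjusted p was taken in the main fit only. The median difference of the members ranged from -0.27 to -0.16 with deprivation, from -0.06 to 0.11 with cell class and from -0.32 to -0.17 with hemisphere without single arrays. The hemisphere median moved to -0.60 with median centring, which shifts all probe sets alike, and to -0.17 with quantile normalization. The deprivation median moved to -0.35 and -0.13 in these 2 settings. Of the values of single probe sets under other settings for deprivation, 341 kept their sign and 19 turned it. COX6C turned negative with quantile normalization (-0.02), median centring (-0.11), the GAPDH 3'/5' ratio (-0.003) or the ACTB ratio (-0.013) as a covariate and without the deprived layers 2 and 5 (-0.018), COX6A1 (0.046) and COX7A2 (0.023) turned positive with quantile normalization, and COX7C 213846_at in parvocellular layers only (0.045). Without single arrays COX6A1 ranged from -0.145 to 0.011, COX6C from -0.088 to 0.15, COX7A2 from -0.154 to 0.025 and COX7C 213846_at from -0.12 to 0.103. Sizes moved by over 1.5 times without single arrays, with the sign kept, for COX5B 211025_x_at (-0.665 to -0.283), COX6B1 (-0.321 to -0.135), COX7B (-0.353 to -0.155), COX7C 201134_x_at (-0.277 to -0.046), COX7C 217491_x_at (-0.359 to -0.078) and COX8A (-0.325 to -0.096). With the layer number as a replicate block the deprivation median was -0.21 and 0 members passed. The main fit did not treat layers as pairs. Deviations from the deprived and non-deprived means had correlations from -0.25 to 0.00 between the samples of 1 layer. Those samples always came from opposite hemispheres, and hemisphere was not removed first, so these correlations cannot show whether layers pair. The cause of the shifts between settings was not tested. The number of arrays limits what could be detected.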
